A study of Drosophila melanogaster with 2 samples.

Results

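The inducible antimicrobial peptide genes of the fly were followed in RNA of yw and mbf1 mutant Drosophila melanogaster. The gene list held 10 genes, namely Mtk, Def, Drs, Dro, AttA, AttC, AttD, DptA, DptB and Listericin, and a gene was taken up when the platform annotation gave its symbol as the only symbol of a probe set. This was so for 6 of the 10 genes (Mtk, Def, Drs, AttD, DptB and Listericin), each with 1 probe set, out of 10843 genes with a named probe set. Probe sets of 2 more genes, Dro and DptA, were identified only through the synonyms in a gene table and are kept apart below. AttA and AttC were not analysed here.

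The control was the strain yw, mutant for yellow, a body pigment gene, and for white, which colours the eye. The other group consisted of homozygous mbf1 mutants, whose allele is not stated in the labels, nor is it stated whether they shared the yw background. Both are labelled as embryos incubated at 25 °C until 16 h from egg laying. Each genotype gave RNA for 1 Affymetrix DrosGenome1 array, 2 arrays in all, and the number of embryos per array is not stated. MBF1, multiprotein bridging factor 1, is a coactivator that connects transcription factors with the TATA-binding protein, and the study was set up to find genes that it regulates.

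Antimicrobial peptides are small secreted proteins that kill bacteria and fungi, made in the fat body after infection and also in blood cells and in surface epithelia. Their genes are switched on by NF-kappaB factors at the end of 2 signalling routes. In the Toll pathway, fungal or Gram-positive bacterial products start a protease cascade that cleaves Spätzle, the ligand of the receptor Toll, and this frees Dif and Dorsal. In the Imd pathway, peptidoglycan recognition proteins sense the peptidoglycan of Gram-negative bacteria and the factor Relish is activated. In infected flies Drs and Mtk, both antifungal, depend mostly on Toll, although Imd can also drive Mtk. The attacin, diptericin and drosocin genes depend mostly on Imd. Listericin was grouped with them here although JAK-STAT signalling also drives it, and Def needs both pathways and was placed in neither group.

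Values are MAS5 signals after scaling, an intensity on a linear scale, with the mbf1 array divided by 1.47 so that the bulk of bright probe sets had the same level on both arrays. A floor was set at 17.7, and smaller signals were raised to it before a ratio was taken, so a fold with 1 side at the floor is a minimum and is written as "at least". The 7688 genes that exceeded the floor on at least 1 array are called measured. With 1 array per genotype no value has a replicate error and no test between genotypes was possible, so each difference is one between 2 arrays. In bulk RNA, fewer cells that make a transcript and less transcript per cell cannot be told apart. For 260 genes more than 1 probe set exceeded the floor on both arrays. There the SD of a single log2 ratio, taken from how far the 2 brightest such probe sets disagreed, was 0.38. This leaves out all error between animals, extractions and arrays.

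The mbf1 transcript itself went from 478.7 in yw to 22.1 in the mutant, 21.7-fold lower, in the direction its label gives. The labels do not give the extent of the mutation, and 1 probe set reads the gene. Embryo labels were set against markers of other stages and tissues. All 8 genes of the adult male reproductive tract with a probe set were measured, with signals from 248 to 3014 on the yw array. Of the 4 embryonic epidermis and trachea markers with a probe set, btl, the receptor of tracheal cells, was under the floor on both arrays, and the other 3 were measured. All 8 midgut markers were measured as well, with signals from 487 to 3698 on the yw array. Both arrays thus carried RNA of genes known from adult males and bright midgut markers. Neither the labelled stage nor any effect of this on the peptide genes was tested.

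Of the 6 annotated peptide genes, 3 exceeded their yw signal by 2-fold or more on the mbf1 array and 1 was at least 2-fold lower. Among all measured genes 1.51% were at least 2-fold higher and 1.63% at least 2-fold lower. Positive ratios were found for 5 of the 6, and the median log2 ratio was 0.70, where 49.9% of all measured genes had a positive ratio and their median was -0.00085. With Dro and DptA added 6 of 8 ratios were positive and the median was 0.38. Without scaling between the arrays the median of the 6 genes was 1.25, where that of all measured genes was 0.50. The direction was not shared by the whole family, since Def was past 2-fold in the other direction from Mtk, Listericin and AttD.

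**Figure D1:**
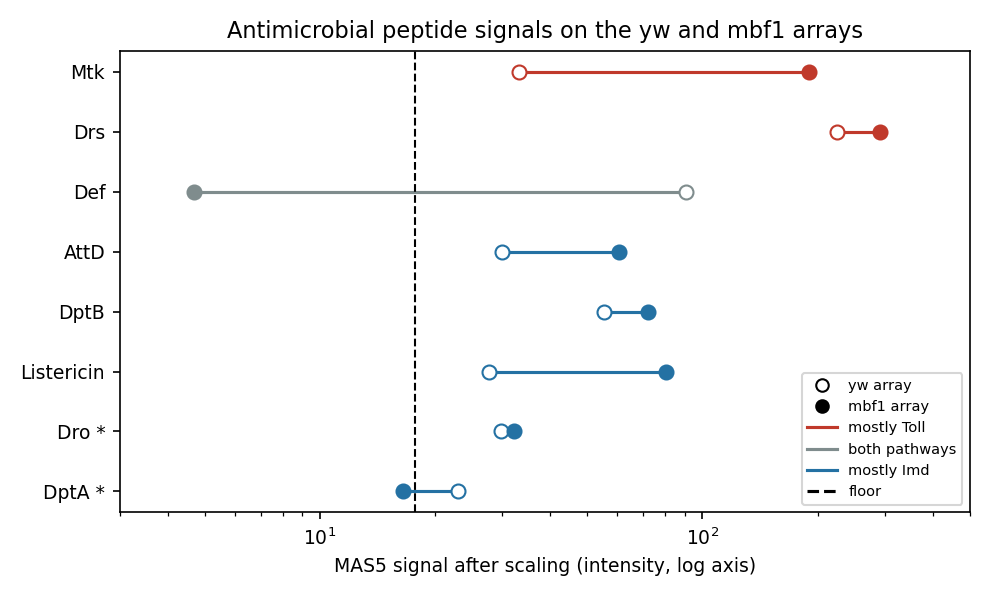
Signals of 8 antimicrobial peptide genes on the yw array (open circles) and the mbf1 array (filled circles), after scaling, on a log axis, with a line joining the 2 values of a gene. The dashed line is the floor at 17.7, colours give the pathway that mostly drives the gene, and asterisks mark genes named through synonyms. Mtk moves from 33.1 to 190.1 and Def from 90.7 to 4.68, under the floor, while Dro hardly moves.

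Among the mostly Toll-driven genes, Mtk encodes metchnikowin, a proline-rich peptide against fungi and Gram-positive bacteria. Its signal in yw was 33.1, or 1.87 times the floor. In the mutant it was 190.1, which is 5.74-fold higher (log2 ratio 2.52). No other of the 6657 genes that exceeded the floor in both genotypes had a ratio as high, and 1 of all 7688 measured genes lay higher, as a bound. None of the 500 measured genes nearest to it in mean signal had a ratio as high.

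Drs encodes drosomycin, an antifungal peptide used as the classical readout of Toll. It gave 225.2 in yw and 291.6 in the mutant, 1.29-fold higher (log2 ratio 0.37). These signals were 12.7 and 16.5 times the floor. This difference was no larger than the disagreement between probe sets of 1 gene, and 67 of the 500 genes nearest in signal had a ratio at least as high. The log2 ratios of the pair of Toll-driven genes were thus far apart.

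Def encodes defensin, a peptide mainly against Gram-positive bacteria. It gave 90.7 in yw and 4.68 in the mutant, the latter under the floor, so that it was at least 5.12-fold lower. That minimum is set by the floor and the size beyond it is not known, so no rank is given. Def thus exceeded the floor in yw alone, whereas the other 5 annotated peptide genes did so in both genotypes.

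Among the mostly Imd-driven genes, Listericin, a peptide gene known from the response to Listeria, gave 27.6 in yw and 80.3 in the mutant, 2.91-fold higher (log2 ratio 1.54). By ratio it held rank 17 from the top of the same 6657 genes. AttD, the attacin gene whose product lacks a secretion signal, gave 29.9 in yw and 60.5 in the mutant, 2.02-fold higher, which is just past the 2-fold threshold. The yw signals of Listericin and AttD were only 1.56 and 1.69 times the floor.

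DptB, a diptericin gene against Gram-negative bacteria, gave 55.2 in yw and 71.9 in the mutant, 1.30-fold higher (log2 ratio 0.38). The size was close to that of Drs, and 77 of the 500 genes nearest in signal had a ratio at least as high. These signals were 3.12 and 4.06 times the floor.

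The probe sets of Dro and DptA carried no symbol in the platform annotation. Of 133 probe set identifiers among the synonyms of the gene table, 111 had the same symbol in the annotation, 22 had no single symbol there and 0 had another one. Dro, which encodes the proline-rich peptide drosocin, gave 29.8 in yw and 32.1 in the mutant (log2 ratio 0.11). DptA, the other diptericin gene, gave 23.0 in yw and 16.5 in the mutant, the latter under the floor, which makes it at least 1.30-fold lower. Neither reached 2-fold, and DptA was close to the floor on both arrays, so the neighbouring diptericin genes DptA and DptB had ratios of opposite sign but small size.

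**Figure D2:**
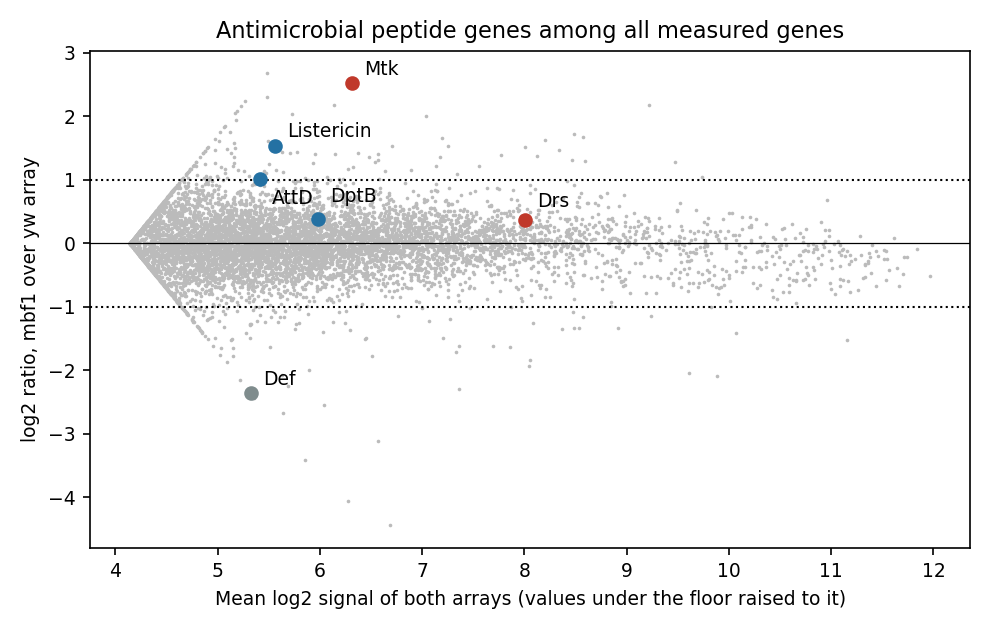
Log2 ratio of the mbf1 over the yw array against mean log2 signal for all 7688 measured genes (grey), with the 6 annotated peptide genes in colour (red mostly Toll, grey both pathways, blue mostly Imd). Dotted lines mark 2-fold. Mtk, Listericin and Def lie outside the bulk of genes of their signal, AttD lies on the 2-fold line, and Drs and DptB lie within the bulk; the slanted edges at low signal come from the floor.

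In order of their log2 ratios the genes were Mtk, Listericin, AttD, DptB, Drs, Dro, DptA and Def. The steps from Mtk to Listericin, from Listericin to AttD, and from AttD to DptB were 0.98, 0.52 and 0.63. The step from DptB to Drs was 0.0094 and that from Drs to Dro 0.27. The ratios of DptA and Def are bounds, so the steps to these genes give no distance and are not named. For 2 probe sets of 1 gene, the 95th percentile of the absolute difference in log2 ratio was 1.03. All the steps named here were smaller than that, so the order within them is loose. Members of both pathways thus stood next to each other in the order.

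The comparison of Toll with Imd gave no separation of the groups. The mostly Toll-driven genes had a median log2 ratio of 1.45 over 2 genes, and the mostly Imd-driven genes one of 1.01 over 3 genes, a difference of 0.43. Ratios ran from 0.37 to 2.52 in the Toll group and from 0.38 to 1.54 in the Imd group, so the groups overlapped. The difference rested on Mtk, and without it the Toll group held Drs alone and the difference was -0.64. It was also -0.64 with Def counted as Toll-driven, and 0.75 with Def counted as Imd-driven or with Listericin left out. With Dro and DptA added, a choice made after their values were seen, the Imd median was 0.38 and the difference 1.07.

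Genes acting beside or upstream of the peptides were described from lists of pathway members. Other antimicrobial peptides and the bomanins, short peptides that Toll induces and that protect against fungi and Gram-positive bacteria, were measured for 11 of 12 genes with a probe set. In that list 0 genes were at least 2-fold higher and 1 was at least 2-fold lower, against 1.51% and 1.63% of all measured genes. The median log2 ratio of the list was -0.12. The 1 lower gene was the bomanin gene BomBc2, at 528.3 in yw and 207.8 in the mutant, 2.54-fold lower. The 8 bomanins had 4 positive and 4 negative ratios and a median of -0.0090, and they were bright, with signals from 106 to 1312 on the yw array. BomS5 had signals of 872.7 and 1210, and BomT2 had signals of 268.5 and 147.2. The highest log2 ratio in the list was 0.48, where that of Mtk was 2.52. The yw signal of Mtk, at 33.1, was lower than that of any measured bomanin. The part of Toll signalling in these ratios was not tested. The drosomycin-like gene Drsl5 had a log2 ratio of 0.38, close to that of Drs. CecB, a cecropin gene, was under the floor on both arrays. Anp encodes andropin, a peptide of the male ejaculatory duct, and had signals of 2118 and 1577.

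Toll pathway genes had a median log2 ratio of -0.05 over 13 measured genes. Against 1.51% and 1.63% of all measured genes, 1 of them was past 2-fold upward and 0 downward. That gene was tub, the adaptor Tube, at signals of 20.4 and 42.8 and thus near the floor on the yw array. Myd88, the adaptor that binds Toll, had a log2 ratio of 0.96, and the ligand gene spz and the receptor gene Tl had ratios of -0.05 and -0.09. Negative ratios were found for 7 of the 13, where 49.9% of all measured genes had a positive ratio. They included psh, a protease gene of the cascade, at -0.89, Pli at -0.33, SPE, the protease that cleaves Spätzle, at -0.30 and the kinase gene pll at -0.26. The inhibitor gene cact, which Toll signalling also induces, had a log2 ratio of 0.26. Dif was under the floor on both arrays, and dl had a log2 ratio of 0.43.

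Imd pathway genes had a median log2 ratio of 0.12 over 13 measured genes. Against 1.51% and 1.63% of all measured genes, 1 of them was past 2-fold upward and 0 downward. That gene was PGRP-SC2, whose product breaks down peptidoglycan and dampens the pathway, at 167.3 in yw and 518.5 in the mutant, 3.10-fold higher. PGRP-LB, a related amidase gene that Imd induces, had a log2 ratio of 0.20, and pirk, an induced inhibitor, had signals of 16.1 and 24.7, or at least 1.40-fold higher. Rel, which encodes Relish, had a log2 ratio of 0.46, and the receptor gene PGRP-LE one of -0.04. Negative ratios were found for 5 of the 13, where 49.9% of all measured genes had a positive ratio. The lowest were -0.37 for the caspase gene Dredd and -0.32 for the ubiquitin ligase gene Diap2. The adaptor gene imd was under the floor on both arrays. Of the JAK-STAT list only 3 genes were measured, with a median of -0.25, and Stat92E had a log2 ratio of 0.44.

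**Figure D3:**
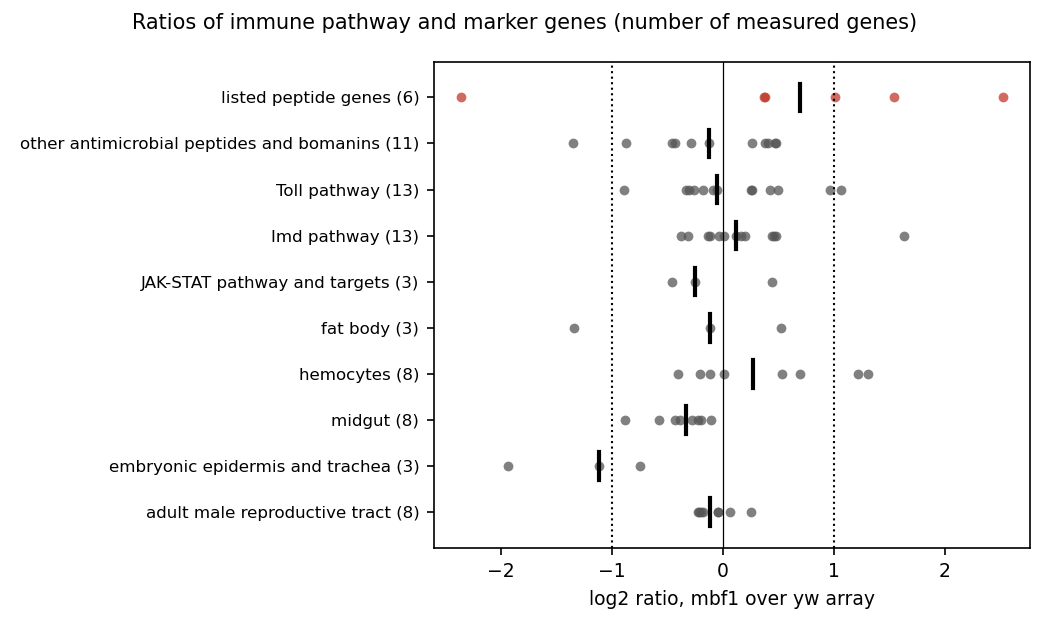
Log2 ratios of the measured genes of each list (points) with the list median (bar), the number of measured genes in brackets, and dotted lines at 2-fold. The 6 listed peptide genes (red) spread from -2.36 to 2.52, wider than any of the other 9 lists, and the pathway lists lie around 0.

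Markers of tissues that can make these peptides did not share 1 direction. The shares over all measured genes were 1.51% at least 2-fold higher, 1.63% at least 2-fold lower and 49.9% with a positive ratio. Hemocyte markers had a median log2 ratio of 0.27 over 8 measured of 10 genes, and 2 were at least 2-fold higher, the prophenoloxidase genes PPO1 at 60.4 and 149.5 and PPO2 at 123.2 and 287.2. The signals of all 8 summed to 3801 in yw and to 3812 in the mutant, most of it from Nplp2 at 3080 and 2850, and without that gene to 720.8 and 961.9. The defining blood cell genes Hml and NimC1 had log2 ratios of 0.53 and 0.70, and eater was under the floor on both arrays. Negative ratios were found for 3 of the 8, Pxn at -0.40, Col4a1 at -0.21 and Nplp2 at -0.11. Fat body markers were measured for 3 genes, with a median of -0.12 and summed signals of 1310 and 1250. A brighter probe set shared by the listed gene Adh and by Adhr was left out, at 4704 in yw and 4036 in the mutant (log2 ratio -0.22). The larval storage protein gene Lsp2 was at 588.1 in yw and 232.7 in the mutant, 2.53-fold lower, and the lipoprotein gene apolpp at 680.7 and 978.9. Midgut markers had a median log2 ratio of -0.33, with 8 of 8 ratios negative and summed signals of 18670 and 14822, but the median followed the scaling, at 0.22 without it, -0.06 after quantile normalization, -0.14 after loess and -0.12 on hybridization controls. Epidermis and trachea markers had a median of -1.11 over 3 genes, with summed signals of 734.9 and 254.2, and 2 of them were at least 2-fold lower, the cuticle protein gene Cpr49Ae at 515.2 and 134.8 and the chitin deacetylase gene serp at 86.8 and 40.2. The male reproductive tract list had a median of -0.11, with 0 of 8 genes past 2-fold and summed signals of 11543 and 10525. The part of these markers in the peptide ratios was not tested.

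Position was compared through the order of protein-coding genes in the gene table. Of the 12 genes lying directly beside the 6 annotated peptide genes, 10 had a probe set and 6 were measured. Of these 6, 0 were at least 2-fold apart, with log2 ratios from -0.55 to 0.75. Among all measured genes 1.51% were at least 2-fold higher and 1.63% at least 2-fold lower, so a count of 0 is near that share. The 6 include DptA, a listed gene named only through synonyms, which lies beside DptB. Stacl, next to Mtk, had a log2 ratio of -0.55, while magu and PIG-N, on both sides of Def, had positive ratios of 0.75 and, as a bound, 0.57. The neighbours of Mtk and Def with a ratio had the opposite sign to the peptide gene beside them. So did kst beside Drs, at -0.0068, and DptA beside DptB, at -0.38 as a bound. CG13226 beside Listericin had the same sign as that gene, at 0.09.

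The genes listed with the ratios nearest to that of Mtk were CG11893, CG9344 and CG10725. Likeness here is a difference between 2 log2 ratios over 2 arrays, which was 0.22 for CG9344, while the ratios of CG11893 and CG10725 are bounds and give no distance. Since the ratio of Def is itself a bound, no genes are named as most like it.

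The counts were repeated under other scalings and thresholds. Without scaling between the arrays, 3 peptide genes were at least 2-fold higher and 1 at least 2-fold lower, against 10.1% and 0.431% of all measured genes. Scaled on 9 hybridization controls the counts were again 3 and 1, against 3.05% and 1.01%. At 1.5-fold 3 were higher and 1 lower, against 7.45% and 7.71%, and at 3-fold Mtk alone was higher and Def alone lower, against 0.312% and 0.377%. AttD was the gene nearest to the threshold and lay under it with a floor at the 60th percentile, at a log2 ratio of 0.76, and with a pseudocount, at 0.95. All 6 genes kept their direction in each alternative that gave a value. No floor or pseudocount can reverse a direction, nor can the choice of probe sets where a gene has 1. Only the other scalings could do so here.

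**Figure D4:**
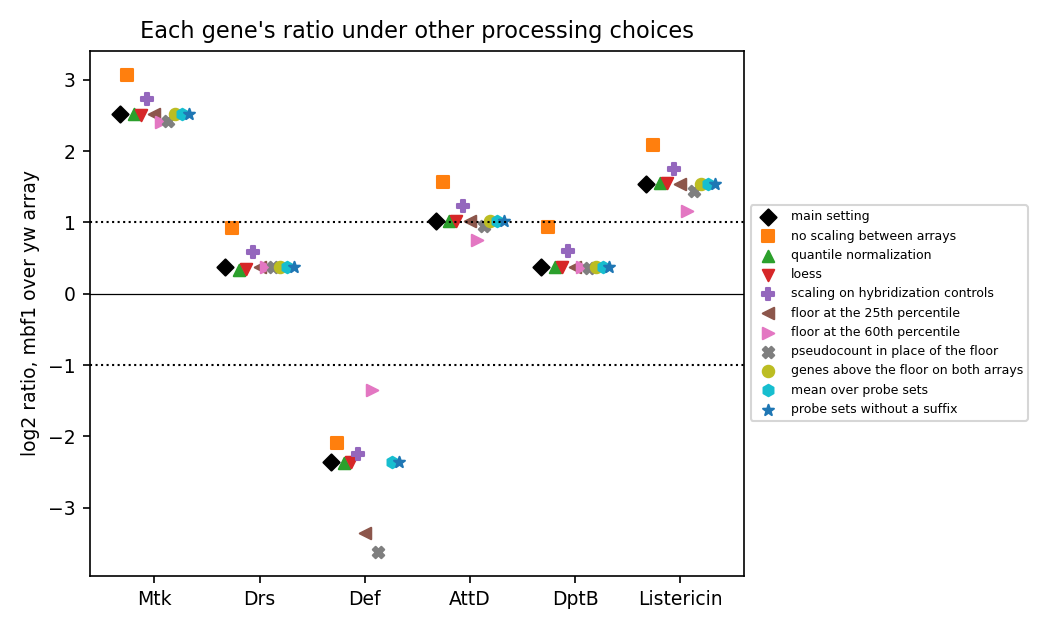
Log2 ratio of each annotated peptide gene in the main setting (black diamonds) and under 10 alternatives (other symbols, offset sideways), with dotted lines at 2-fold. Mtk stays between 2.41 and 3.07 and Listericin between 1.17 and 2.09, Drs and DptB stay under 2-fold, and Def runs from -3.35 to -1.34 with the floor, where it is a bound, and is at -3.62 with a pseudocount in its place.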

How the data were processed

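RNA of yw and mbf1 mutants was measured on 1 array each. The deposited values are MAS5 intensities on a linear scale, per the submitters' processing notes, which give no version. Their medians differed, at 25.4 for yw and 36.9 for mbf1. Signal over background and the number of arrays limit the precision. There were 14010 probe sets in the table, 44 of them controls, and 0 columns of no sample. Symbols came from GEO's platform annotation, updated by gene identifier through a gene table of Release 6, and the brightest probe set stood for a gene.

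Log2 ratios were centred on the median over probe sets above their array's median on both arrays, which removed 0.55. The floor was the 40th percentile of pooled scaled values, 17.7. Alternatives were no scaling, quantile normalization, loess with a span of 0.3, hybridization controls, a pseudocount at the 10th percentile, floors at the 25th and 60th, the mean over probe sets, genes exceeding the floor in both genotypes, probe sets without a suffix, and thresholds of 1.5-fold and 3-fold. A ratio counted as moved when it differed by more than the robust SD of the 500 genes nearest in signal, and a median by more than the typical such SD of its genes. Python 3.11.15, numpy 2.4.6, pandas 2.3.3 and statsmodels 0.14.6 were used. The procedure was tested on simulated data, with changes placed only in genes well above the floor. Genes near it, such as Mtk, Listericin and AttD in yw, were not covered.

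The members and the lists were chosen with earlier results of these data known. Genes named were all members, mbf1, genes of a list at least 2-fold apart, and the 3 genes nearest in ratio to the highest and the lowest member; those of the lowest, Def, are not given because its ratio is a bound. The other genes named, such as ligands, receptors, inhibitors, defining markers and neighbours, were added after their values were seen. No genome build beyond the release of the gene table is given in the sources used here. Gene coordinates served only to order the genes for the comparison of neighbours, and sequences were not used.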

Additional observations from a re-analysis of the deposited data

Results flagged for a closer look

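Probe sets annotated with several genes stayed outside the comparisons, and 2 of those with an immune gene were at least 2-fold brighter in the mutant than in the yw control. Both are annotated with PGRP-SC1a and PGRP-SC1b, near-identical peptidoglycan amidase genes that dampen Imd signalling and that such a probe set cannot tell apart. The brighter probe set gave 140.9 in yw and 288.1 in the mutant, 2.04-fold higher (log2 ratio 1.03). The dimmer gave 37.7 and 85.2, 2.26-fold higher (log2 ratio 1.18). The related gene PGRP-SC2 was 3.10-fold higher, and whether the probe sets of the 3 genes share sequence was not tested.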

How the results depend on the processing

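Adding Dro and DptA was chosen after seeing the data. Without scaling between the arrays the median log2 ratio of all measured genes was 0.50, and by construction the ratios were 3.07 for Mtk, 0.92 for Drs, 1.57 for AttD, 0.93 for DptB and 2.09 for Listericin, with a median of 1.25 over the peptide genes. List medians were then 0.54 for other peptides and bomanins, 0.50 for Toll, 0.67 for Imd, 0.30 for JAK-STAT, 0.44 for fat body, 0.22 for midgut, -0.56 for epidermis and trachea and 0.44 for the male tract. The bound for Def followed the floor, at -3.35 and -1.34 with floors at the 25th and 60th percentile and -3.62 with a pseudocount. Restricted to genes that exceed the floor in both genotypes, 0 peptide genes were lower, since Def is left out there, and at 3-fold 1 was higher, by construction of the threshold. With the mean over probe sets, the epidermis and trachea list was at -0.75. The Toll minus Imd difference of 0.43 was -0.64 with Def as Toll-driven or with Mtk left out, 0.75 with Def as Imd-driven or Listericin left out, and 1.07 with Dro and DptA added; with those 2 genes the median of the peptide genes was 0.38. Of 59 gene ratios under alternatives 51 stayed within their spread, as did 103 of 116 medians, and 24 of 26 counts stayed within 1.5 times. Each annotated peptide gene has 1 probe set, so the alternatives on probe sets could not move its ratio. For those above the floor in both genotypes, a lower floor and the restriction to such genes could not either. The tally thus includes ratios that were fixed in advance, and all alternatives reuse the same 2 arrays. No paired analysis was possible because each genotype has 1 array, and no array could be left out. Genes under the floor, such as Dif and imd, are limited by signal over background.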
